A study of Mus musculus with 6 samples.

Results

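The Krüppel-like factors are DNA-binding proteins that share a run of zinc fingers at the carboxyl end and bind GC-rich CACCC boxes, the sites also recognised by the related Sp factors. A set of Klf genes, Klf2, Klf3, Klf4, Klf6, Klf7, Klf9, Klf10 and Klf13, was followed here by gene symbol; these matched 8 of the 55493 genes in the count table and 8 of its 17 Klf genes. They were picked with results of this comparison already known, so their treatment differences are descriptions and carry no test. In macrophages and microglia, members of the family are known for opposite roles: Klf2 and Klf4 restrain inflammatory activation or favour alternative activation, whereas Klf6 promotes the inflammatory state. Several of the genes (Klf2, Klf4, Klf6, Klf10) are rapidly induced by stimuli such as serum, shear stress or TGF-beta.

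RNA was sequenced from microglia, the resident macrophages of the brain, isolated from male mice of genotype ILT Telo Tg x 5XFAD, in which a human LILR-region transgene is combined with the 5XFAD amyloid transgenes of familial Alzheimer disease. The anti-LILRB4 group received the Fc-mutant antibody ZM3.1 against human LILRB4 (ILT3, an inhibitory receptor of myeloid cells), and the control group the Fc-mutant antibody 27D6 (Ctrl IgG2a), each at 60 mg/kg by weekly intraperitoneal injection over 8 weeks from 4 months of age. Both groups carried both transgenes. The cells were sorted as CD45-low CD11b-positive after Percoll separation of part of the brain, and the labels do not say whether a library came from 1 animal, so the spread given is that between libraries. The comparison, 3 anti-LILRB4 libraries against 3 control libraries, asks what blocking LILRB4 did to the microglial transcriptome.

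Library totals ran between 41948140 and 56345514 reads in the anti-LILRB4 group and between 39805118 and 44987032 in the control group. The microglial markers were all present, with a summed level of 40400 to 41200 CPM (the count scaled to library size, here after TMM normalization) in anti-LILRB4 libraries and 37900 to 40100 CPM in controls. Libraries stood apart in other measures. The human LILRB4 transgene was at 850, 1304 and 3297 CPM in anti-LILRB4 libraries 1, 2 and 3. In controls it was between 1029 and 1078 CPM. Human LILRA1, LILRA2 and LILRB1 were also highest in anti-LILRB4 library 3, at 546, 2261 and 425 CPM, while LILRP1 and LILRP2 were not. Summed neutrophil markers (11 genes) were at 135, 1130 and 219 CPM in anti-LILRB4 libraries 1, 2 and 3. In control libraries 1, 2 and 3 they were at 1340, 573 and 613 CPM. Of the 11 neutrophil markers, 9 had a negative and 2 a positive log2 fold change (anti-LILRB4 over control), with a median of -0.896. In 3 of them all anti-LILRB4 libraries lay below all controls, as in 7.79% of all genes tested, and edgeR called 0. In bulk RNA, fewer cells of a type and less RNA per cell cannot be told apart.

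The sequences upstream of 4 of the 8 genes are shown. Among the 8, Klf4 had the largest treatment difference and Klf2 is its close relative. Klf6 was the most and Klf9 the least abundant of the 8 per length. Each is the stretch from 250 to 31 bases before the RefSeq start site (GRCm38.p6), 220 bases, written 5′ to 3′ on the strand of the gene. Capitals mark matches on either strand to CCNCNCCC (the CACCC box, which in these letters also covers the GC box of Sp factors, overlapping matches included), to the MEF2 site, to the CArG box of serum response factor, to the cyclic AMP response element TGACGTCA and to the AP-1 site TGANTCA.
Klf4, chr4:55532506-55532725, minus strand: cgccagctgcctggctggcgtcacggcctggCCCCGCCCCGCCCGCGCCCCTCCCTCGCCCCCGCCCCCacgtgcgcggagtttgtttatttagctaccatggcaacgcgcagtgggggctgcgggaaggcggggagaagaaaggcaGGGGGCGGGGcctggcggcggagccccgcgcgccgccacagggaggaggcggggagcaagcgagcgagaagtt
Klf2, chr8:72318812-72319031, plus strand: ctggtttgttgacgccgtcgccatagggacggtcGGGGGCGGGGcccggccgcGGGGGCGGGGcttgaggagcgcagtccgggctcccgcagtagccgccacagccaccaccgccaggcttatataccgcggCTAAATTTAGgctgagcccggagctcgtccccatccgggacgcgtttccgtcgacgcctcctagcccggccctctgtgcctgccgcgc
Klf6, chr13:5861239-5861458, plus strand: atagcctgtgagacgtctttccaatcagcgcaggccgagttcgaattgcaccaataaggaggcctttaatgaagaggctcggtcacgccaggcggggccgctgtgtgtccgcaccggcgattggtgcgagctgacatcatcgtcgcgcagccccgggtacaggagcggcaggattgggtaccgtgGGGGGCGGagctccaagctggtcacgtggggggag
Klf9, chr19:23140976-23141195, plus strand: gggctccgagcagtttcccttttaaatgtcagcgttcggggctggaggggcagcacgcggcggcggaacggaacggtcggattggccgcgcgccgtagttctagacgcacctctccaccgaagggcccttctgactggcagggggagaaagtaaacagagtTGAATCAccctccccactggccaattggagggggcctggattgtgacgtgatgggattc

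The Klf4 window held 9 matches to the CACCC box and no match to the other motifs. The Klf2 window held 4, together with a match to the MEF2 site, CTAAATTTAG, at 118 to 109 bases before the start; MEF2 factors are known activators of Klf2 and Klf4 downstream of the kinase ERK5. In the Klf6 window there was 1 CACCC match, and in that of Klf9 none. The Klf9 window held 1 match to the AP-1 letters used here, TGAATCA, and these letters allow any middle base. Windows were at hand for 7 of the 8 genes, and those of Klf3, Klf7 and Klf13 held 10, 8 and 3 CACCC matches. Of 32851 mouse promoter windows of the same length, 41.0% held a CACCC match, 2.60% a MEF2 match, 1.30% a CArG match, 1.14% a cyclic AMP response element and 6.12% an AP-1 match. The windows of the 7 Klf genes had GC contents between 60.0% and 79.1%, against a median of 51.8% over all windows. These matches are descriptions of letters, and binding was not measured.

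Klf transcripts differed widely in level and in length, so levels are compared per kilobase of merged exons (GENCODE M21). The exons used for counting may differ from these. Klf6 led in every library, at 84.1 ± 5.35 CPM per kb in anti-LILRB4 libraries and 94.7 ± 8.38 in controls (SD, n = 3 each), which was 50.9 ± 4.01% and 54.6 ± 4.00% of the summed per-length level of all 17 Klf genes. Klf3 (22.7 ± 1.59 CPM per kb with anti-LILRB4 and 22.7 ± 3.56 in controls) and Klf13 (22.5 ± 4.88 and 19.0 ± 1.43) followed, and their ranges over the 6 libraries overlapped. Klf10 came next, at 15.4 ± 1.09 CPM per kb with anti-LILRB4 and 16.1 ± 1.44 in controls, overlapping Klf13 but not Klf7. Klf7 was at 11.8 ± 2.24 CPM per kb with anti-LILRB4 and 9.65 ± 1.57 in controls. The remaining genes were far lower, and their library ranges formed an overlapping chain: Klf4 was at 0.684 ± 0.178 CPM per kb with anti-LILRB4 and 1.97 ± 0.235 in controls, Klf2 at 0.568 ± 0.275 and 0.983 ± 0.303, and Klf9 at 0.211 ± 0.127 and 0.317 ± 0.0938. Together the 8 genes made up 95.4 ± 0.268% of the family's per-length level in anti-LILRB4 libraries and 95.5 ± 0.617% in controls.

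**Figure D1:**
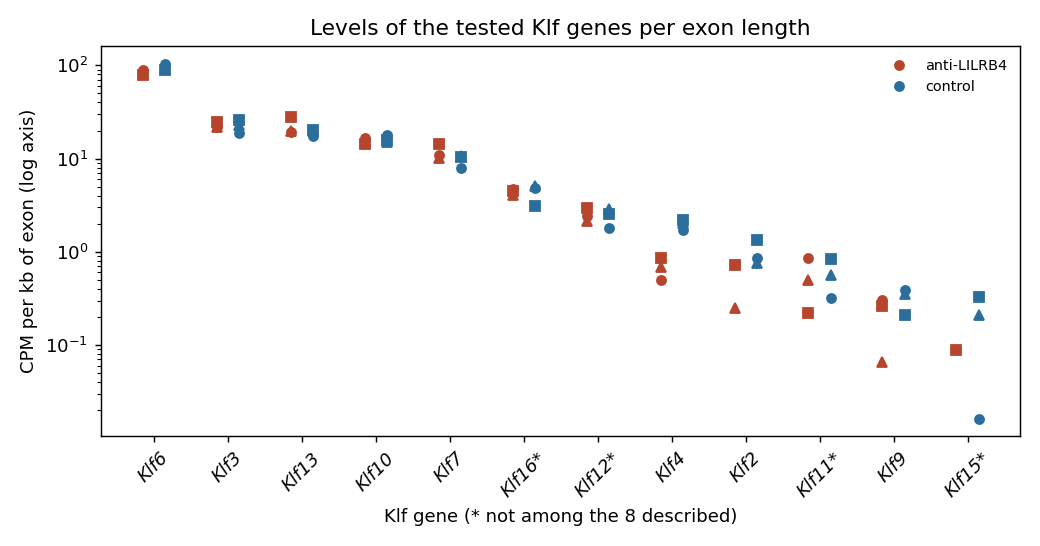
Level of each tested Klf gene in CPM per kb of exon (log axis), 1 point per library, anti-LILRB4 left of control; circles, squares and triangles are libraries 1, 2 and 3, and asterisks mark genes outside the 8. Klf6 lies above all others in each library, Klf4 is the gene of the 8 with the clearest gap between groups, and Klf15 has no point in anti-LILRB4 libraries 1 and 3, where its count was 0.

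Of the 8 genes, all of which passed the filter on low counts, 5 had a negative and 3 a positive log2 fold change (anti-LILRB4 over control), with a median of -0.12 beside -0.0068 over the 18210 genes tested. A log2 fold change is given below with ± its standard error. The edgeR quasi-likelihood test called 0 of the 8 at a Benjamini-Hochberg adjusted p of 0.05, as it did 0% of all genes tested. DESeq2 on the same genes called 1, Klf4, where it called 0.928% of all genes and 0.467% as lower. The authors' deposited table also called 1, again Klf4. It called 187 genes, of 19059 with an adjusted p, which is 0.752% of all 24870 genes in that table. At an unadjusted p under 0.05 edgeR had 1 of the 8, where 8.03% of all genes reached it. In 3 of the 8 (Klf2, Klf4 and Klf6) all anti-LILRB4 libraries lay below all controls, as 7.79% of all genes did, and in 0 all lay above, as in 6.94% (14.7% in either direction). Nothing is read from these counts, because the genes were chosen on this contrast.

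Klf4, a factor of monocyte differentiation and alternative macrophage activation (GRCm38 chromosome 4, 55527143 to 55532466, minus strand), had 69, 149 and 87 reads in anti-LILRB4 libraries 1, 2 and 3 and 231, 267 and 272 in control libraries 1, 2 and 3. These were 1.53, 2.61 and 2.11 CPM with anti-LILRB4, against 5.22, 6.62 and 6.19 CPM in controls. Every anti-LILRB4 library lay below every control, and the exact Poisson 95% interval of the highest anti-LILRB4 library (2.21 to 3.07 CPM) ended below that of the lowest control (4.57 to 5.94 CPM); such intervals cover counting error only. The log2 fold change was -1.52 ± 0.31, and the authors' deposited table also gives -1.52. In absolute size, 2.72% of all genes tested had a log2 fold change at least as large. Klf4 was chosen on this contrast, so nothing is read from that share. The log2 fold change of Klf4 stayed between -1.71 and -1.34 when single libraries were left out. Within the family, Klf4 made up 0.413 ± 0.104% of the per-length level with anti-LILRB4 and 1.14 ± 0.149% in controls (SD, n = 3 each), and the per-length ratio of Klf4 to Klf6 within a library was 0.00564, 0.0109 and 0.00814 with anti-LILRB4 and 0.0164, 0.0243 and 0.0225 in controls.

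Klf2, which maintains quiescence in T cells and endothelium (chromosome 8, 72319033 to 72321656, plus strand), rested on few reads, 61, 76 and 19 with anti-LILRB4 and 70, 99 and 62 in controls. Its levels were 1.35, 1.33 and 0.461 CPM in anti-LILRB4 libraries 1, 2 and 3 and 1.58, 2.45 and 1.41 CPM in control libraries 1, 2 and 3. The groups did not overlap, but anti-LILRB4 library 1 (95% Poisson interval 1.03 to 1.74 CPM) and control library 3 (1.08 to 1.81) could not be separated at this depth. The log2 fold change was -0.79 ± 0.51. Leaving out anti-LILRB4 library 3 gave -0.44, and leaving out control library 2 gave -0.50.

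Klf4 and Klf2 were both highest in control library 2, but differed in the library where they were lowest. Klf4 was lowest in anti-LILRB4 library 1 and Klf2 in anti-LILRB4 library 3, and the per-length ratio of Klf4 to Klf2 was 0.685, 1.19 and 2.77 with anti-LILRB4 and 2.0, 1.63 and 2.66 in controls. Among 6361 named genes with a mean log2 CPM of at least 4, those whose log2 CPM followed Klf4 most closely over the 6 libraries were Kansl1l, Med19, a subunit of the Mediator complex, and Ints7, a subunit of the Integrator complex, with Pearson's r of 0.983, 0.978 and 0.977. For Klf2 they were Wasl, an activator of actin branching, Alkbh4, a dioxygenase, and Cdc40, a splicing factor, at 0.978, 0.974 and 0.970. These coefficients describe 6 points that share the treatment split, and 58 genes for Klf4 and 55 for Klf2 exceeded 0.9.

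**Figure D2:**
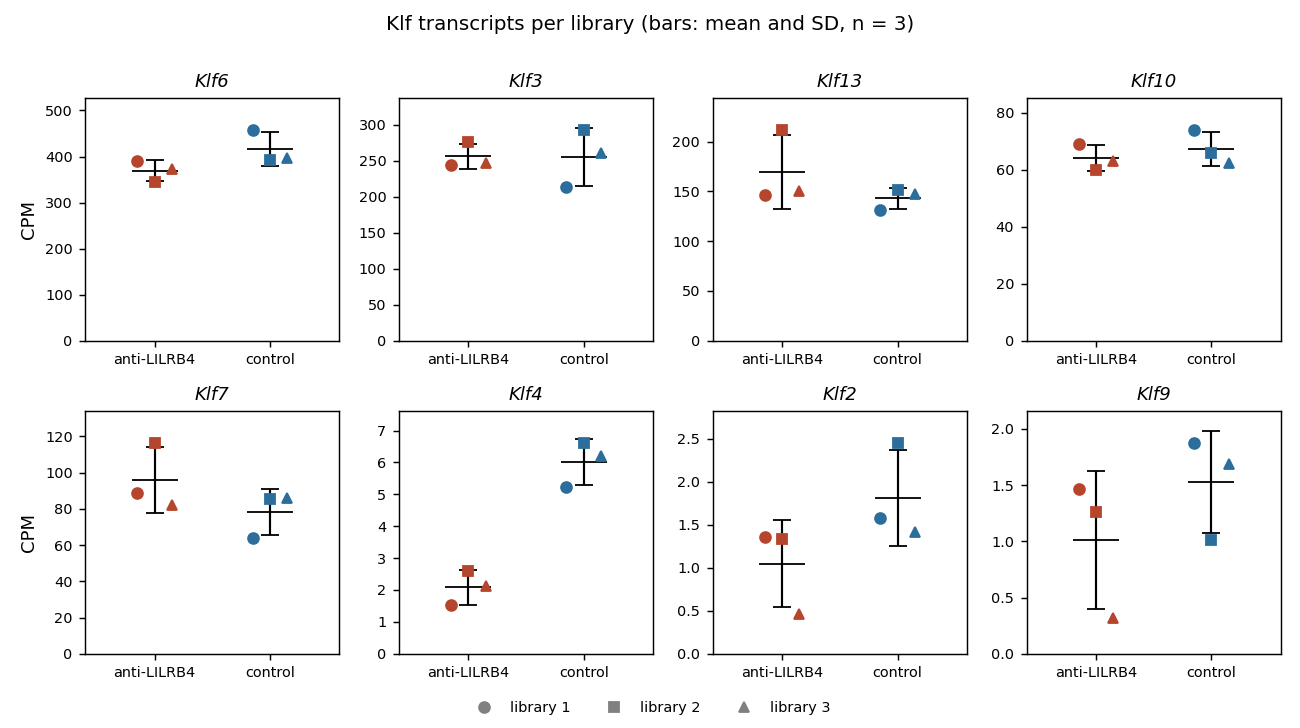
CPM of the 8 Klf genes in every library, anti-LILRB4 left of control, each axis from 0; horizontal bars and whiskers are the mean and SD (n = 3). Klf4 lies at 1.53 to 2.61 CPM with anti-LILRB4 and 5.22 to 6.62 CPM in controls, while Klf3 and Klf10 overlap between groups and Klf7 and Klf13 are highest in anti-LILRB4 library 2.

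Klf6, an early-response factor that promotes inflammatory gene expression in macrophages (chromosome 13, 5861482 to 5870394, plus strand), was at 391, 344 and 374 CPM in anti-LILRB4 libraries 1, 2 and 3, against 458, 392 and 397 CPM in control libraries 1, 2 and 3. All anti-LILRB4 libraries lay below all controls, but library 1 of the anti-LILRB4 group and library 2 of the control group were nearly level. The log2 fold change was -0.17 ± 0.10, or -0.09 once control library 1 was left out and -0.11 once anti-LILRB4 library 2 was. Klf7, its close relative, known for axon growth in neurons (chromosome 1, 64029447 to 64122282, minus strand, exons overlapping those of Gm13748 and Gm26649), went the other way, at 88.8, 116.5 and 82.2 CPM with anti-LILRB4 and 63.7, 85.4 and 86.2 CPM in controls. The groups overlapped, with the highest value in anti-LILRB4 library 2 and the lowest in control library 1. Its log2 fold change was 0.29 ± 0.17, or 0.13 once anti-LILRB4 library 2 was left out and 0.16 once control library 1 was. Reads of Klf7 and of the overlapping genes cannot be told apart, as the library kit does not mark strand.

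Klf3, a repressor that recruits the corepressor CtBP (chromosome 5, 64803388 to 64832901, plus strand, exons overlapping those of Gm20033), was at 244.5, 276 and 246 CPM with anti-LILRB4 and 213, 293 and 260 CPM in controls. The groups overlapped fully, the control libraries enclosing the treated ones. The log2 fold change was 0.0021 ± 0.13, and its sign changed with the scaling and with the library left out, from -0.11 without control library 1 to 0.12 without control library 2.

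Klf9, Klf10 and Klf13 belong to the branch of the family that recruits the corepressor Sin3a. Klf9, a target of glucocorticoid and thyroid hormone (chromosome 19, 23141226 to 23168134, plus strand), had 66, 72 and 13 reads with anti-LILRB4 and 83, 41 and 74 in controls, or 1.46, 1.26 and 0.316 CPM and 1.88, 1.02 and 1.68 CPM. The groups overlapped, and anti-LILRB4 library 3 stood below all others, as it did for Klf2. The log2 fold change was -0.59 ± 0.59, and was -0.94 once anti-LILRB4 library 1 was left out, or -0.17 once anti-LILRB4 library 3 was. That library also had the highest levels of human LILRB4 (3297 CPM), LILRA1, LILRA2 and LILRB1. Whether this bears on Klf2 or Klf9 was not tested.

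Klf10, a TGF-beta-inducible early gene (chromosome 15, 38291463 to 38300706, minus strand), was at 69.1, 60.1 and 63.3 CPM with anti-LILRB4 and 74.0, 65.8 and 62.4 CPM in controls. The ranges overlapped, and the log2 fold change of -0.07 ± 0.12 ran between -0.13 without anti-LILRB4 library 1 and 0.0015 without control library 1. Klf13, an activator of the chemokine gene Ccl5 in T cells (chromosome 7, 63886351 to 63938915, minus strand), was at 146, 212 and 150.5 CPM with anti-LILRB4 and 131, 151 and 147 CPM in controls. The groups overlapped, and only anti-LILRB4 library 2 exceeded the highest control. The log2 fold change of 0.24 ± 0.15 was 0.06 without anti-LILRB4 library 2.

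Library by library, Klf7 and Klf13 shared their extremes, both being highest in anti-LILRB4 library 2 and lowest in control library 1, whereas Klf6 and Klf10 were highest in control library 1 and lowest in anti-LILRB4 library 2. These libraries also lay at the ends of the main axis of variation across the more abundant genes (first principal component, 36.2% of the variance). The pattern is therefore not shown to be particular to Klf genes. The per-length ratio of Klf13 to Klf6 was 0.218, 0.359 and 0.235 with anti-LILRB4 and 0.167, 0.225 and 0.217 in controls. The summed per-length level of all 17 Klf genes was 165.5 ± 4.91 CPM per kb with anti-LILRB4 and 173 ± 2.84 in controls (SD, n = 3 each).

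**Figure D3:**
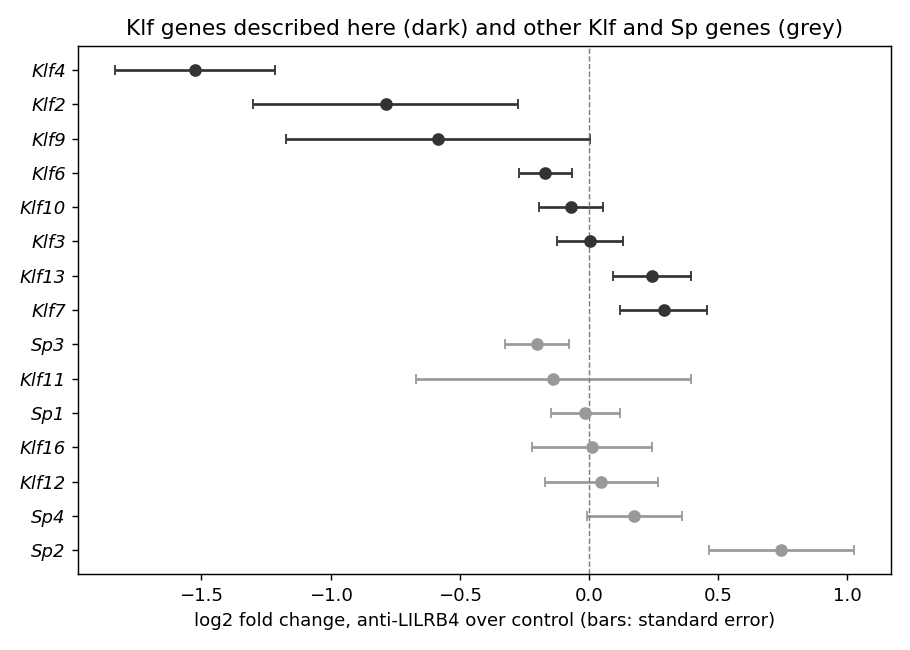
Log2 fold change of anti-LILRB4 over control with its standard error, for the 8 Klf genes (dark) and for the other tested Klf and Sp genes (grey, without Klf15, which had 14 reads in all with anti-LILRB4). Of the genes drawn, Klf4 at -1.52 is the farthest from 0. Klf6, Klf10 and Klf3 lie between -0.17 and 0.0021, and Sp2 at 0.74 is the highest of those outside the 8.

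The rest of the family was tested, although it is what the choice of the 8 genes left and so is not independent of this contrast. Of the 9 Klf genes outside the 8, 4 passed the filter, and of 9 Sp genes, also 4. In edgeR 0 of these 8 genes were called, and DESeq2 called 0. At the unadjusted level of 0.05, 1 had a higher and 0 a lower level with anti-LILRB4, where 4.12% and 3.91% of all genes did. The gene with the smallest p was Sp2, at 20.6, 28.7 and 19.0 CPM with anti-LILRB4 and 11.1, 19.8 and 10.0 CPM in controls. Its groups overlapped, and its log2 fold change of 0.74 ± 0.28 had an adjusted p of 0.554 in edgeR. Sp3, an activator or repressor at the same GC boxes, was at 36.04, 34.15 and 35.02 CPM with anti-LILRB4 and 40.0, 41.5 and 39.6 CPM in controls. All its anti-LILRB4 libraries lay below all controls, by a log2 fold change of -0.20 ± 0.12 with an edgeR adjusted p of 0.728. Sp1 and Sp4 had log2 fold changes of -0.01 and 0.18.

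Klf12, Klf11 and Klf16 had log2 fold changes of 0.05, -0.14 and 0.01, with edgeR adjusted p between 0.969 and 0.994. Klf15, a glucocorticoid-responsive regulator of metabolism, had 0, 14 and 0 reads with anti-LILRB4 and 2, 37 and 26 in controls. Its log2 fold change of -2.55 ± 1.43 was larger in size than that of Klf4, but rested on these few reads. Its edgeR adjusted p was 0.688. Klf1, Klf5, Klf8, Klf14 and Klf17 did not pass the filter, and all 29 reads of Klf8 came from anti-LILRB4 library 3.

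Genes around the family were read from lists with the same fit. The lists were chosen with earlier results of these data known, so their counts are descriptions and not independent evidence. Over the 80 tested genes of the 8 lists edgeR called 0, put 4 higher and 9 lower at the unadjusted level of 0.05 (4.12% and 3.91% of all genes), and gave a median log2 fold change of 0.0098. DESeq2, which called 0.928% of all genes, called 4 of them, Crebbp higher and S1pr1, Junb and Ier2 lower. The kinases and MEF2 factors that induce Klf2 and Klf4 (Map3k2, Map3k3, Map2k5, Mapk7, Mef2a, Mef2c and Mef2d) all had positive log2 fold changes. Their median was 0.17. It fell to 0.13 when library 2 of the anti-LILRB4 group was dropped and rose to 0.29 when library 1 was. These were the ends of its range over single libraries left out. Mef2b did not pass the filter. None of the 7 reached an unadjusted p under 0.05 in edgeR or was called by DESeq2. Mapk7, which encodes ERK5, was at 25.5, 30.0 and 21.4 CPM with anti-LILRB4 and 16.1, 26.9 and 18.3 CPM in controls, with overlapping groups and a log2 fold change of 0.33 ± 0.22 (edgeR adjusted p 0.750). Map2k5, its activating kinase MEK5, and Mef2c, the most abundant of the list, had log2 fold changes of 0.30 and 0.11.

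Among 11 corepressors and coactivators, 9 had a positive log2 fold change and the median was 0.15. Crebbp, the acetyltransferase CBP that acts as a coactivator for several KLFs, was at 80.6, 139 and 108 CPM with anti-LILRB4 and 45.2, 71.1 and 60.6 CPM in controls. All anti-LILRB4 libraries lay above all controls, with a log2 fold change of 0.89 ± 0.22. Its adjusted p was 0.426 in edgeR and 0.0101 in DESeq2. Ep300, its paralog, had a log2 fold change of -0.13, with all anti-LILRB4 libraries below all controls. Ctbp2, the CtBP partner of Klf3, had 0.37 (edgeR adjusted p 0.650) and Hdac1 0.15. Of 6 genes for KLF protein turnover 5 were positive, with a median of 0.25, and Smurf1, a ubiquitin ligase, had a log2 fold change of 0.55 ± 0.21 (edgeR adjusted p 0.556), with no overlap between groups. Stub1 and Itch, also ubiquitin ligases, had 0.26 and 0.14.

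Genes described as KLF-regulated in other cell types were split, with 6 positive and 6 negative of 12 tested and a median of -0.02. S1pr1, a sphingosine-1-phosphate receptor that Klf2 activates in T cells, was at 184, 163 and 160 CPM with anti-LILRB4 and 242, 214.5 and 223 CPM in controls. Its anti-LILRB4 libraries all lay below the controls, with a log2 fold change of -0.42 ± 0.11. The adjusted p was 0.426 in edgeR and 0.0297 in DESeq2, and edgeR had it between 0.106 and 0.684 under the other settings. Lgals3, repressed by Klf3 in other tissues, had -0.66 (edgeR adjusted p 0.686) and Ccl5, the Klf13 target, -0.11, both with overlapping groups. The median of the list ran between -0.13 without control library 2 and 0.18 without control library 1.

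Of 11 glucocorticoid-induced genes tested, 5 had positive and 6 negative log2 fold changes, with a median of -0.03 that was -0.16 once anti-LILRB4 library 3 was left out, or 0.12 once anti-LILRB4 library 2 was. Mt1, a metallothionein, was at 74.1, 72.8 and 59.4 CPM with anti-LILRB4 and 102.5, 77.0 and 81.9 CPM in controls, without overlap, while Fkbp5, a classical glucocorticoid target, was at 45.7, 32.9 and 54.1 CPM with anti-LILRB4 and 25.4, 41.5 and 24.9 CPM in controls, with overlap. Their log2 fold changes were -0.34 and 0.53, with edgeR adjusted p of 0.612 and 0.622. Sgk1, the most abundant of the list, had -0.23.

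Immediate early and dissociation genes, which share stimuli with Klf2, Klf4, Klf6 and Klf10, had 20 negative and 6 positive log2 fold changes among 26 tested and a median of -0.23. That these genes were lower on balance was known when the list was chosen, so it is not independent evidence. At an unadjusted p under 0.05 there were 7 lower and 1 higher in edgeR (3.91% and 4.12% of all genes), and in 8 all anti-LILRB4 libraries lay below all controls (7.79% of all genes). Junb, an AP-1 subunit, was at 63.5, 72.7 and 61.2 CPM with anti-LILRB4 and 97.9, 93.3 and 96.6 CPM in controls, without overlap. Ier2 was at 15.4, 12.9 and 12.6 CPM with anti-LILRB4 and 22.43, 21.05 and 25.99 CPM in controls, also without overlap. Their log2 fold changes were -0.54 and -0.76, with edgeR adjusted p of 0.420 and 0.426 and DESeq2 adjusted p of 0.00294 and 0.00795. Btg2, the most abundant gene of the list, had -0.18, and the tested genes of the list ran from -1.28 for Fosb to 1.202 for Nr4a1, against -1.52 for Klf4.

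**Figure D4:**
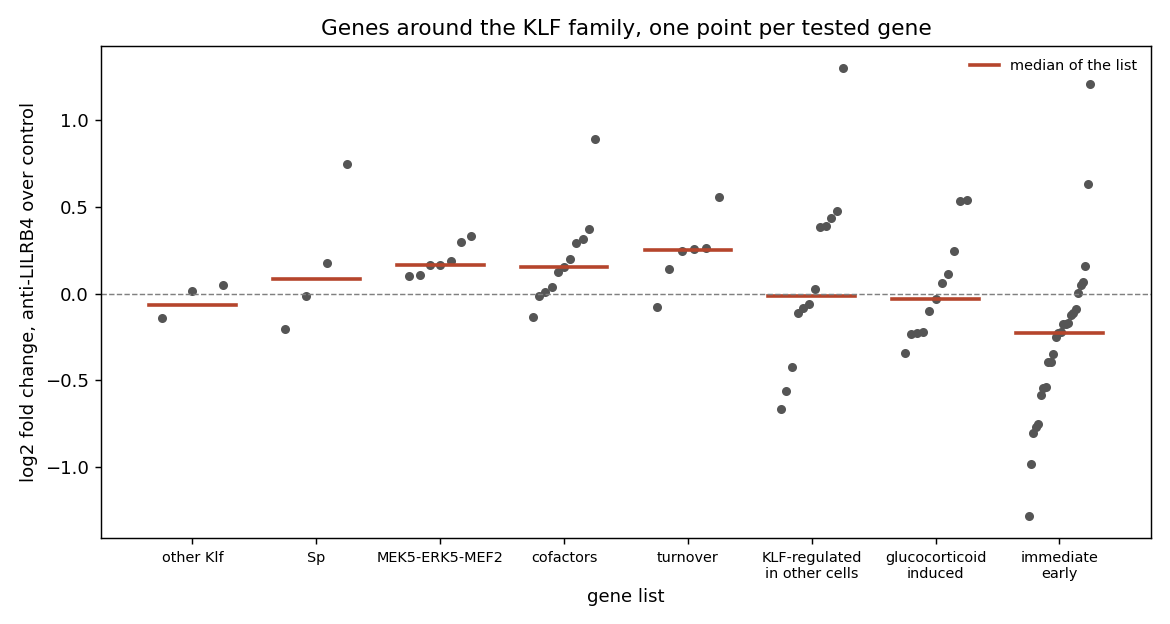
Log2 fold change of anti-LILRB4 over control for each tested gene of 8 lists around the KLF family, with red lines at the list medians (Klf15 is in the median of the other Klf genes but not drawn). All 7 points of the MEK5-ERK5-MEF2 list lie above 0, and 20 of 26 immediate early genes lie below it.

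Markers of other cells that express Klf2 or Klf4 were measured beside them. Summed endothelial markers (10 genes) were at 17.4 to 25.6 CPM with anti-LILRB4 and 11.6 to 24.2 CPM in controls, most of it from Pecam1, and the defining marker Cldn5 was at 0 in 5 of the 6 libraries. Mural markers (7 genes) summed to 1.46 to 2.15 CPM with anti-LILRB4 and 0.933 to 1.83 CPM in controls, with Rgs5 at 0 in all. Monocyte markers (7 genes) summed to 41.2, 76.6 and 31.7 CPM with anti-LILRB4 and 96.2, 46.5 and 55.8 CPM in controls. T and NK cell markers (9 genes) summed to 34.9 to 42.6 CPM with anti-LILRB4 and 22.7 to 28.1 CPM in controls, nearly all from Il7r. B cell markers (6 genes) summed to 587 to 699 CPM with anti-LILRB4 and 451 to 540 CPM in controls, mostly from Ighm. Both sums were higher in every anti-LILRB4 library than in every control, as was Il7r and as was Ighm, but 2 of 4 tested T and NK cell markers and 2 of 6 B cell markers had negative log2 fold changes. The oligodendrocyte sums (159 to 171 CPM with anti-LILRB4 and 125 to 144 CPM in controls) and the microglial sums did not overlap between groups either. Summed border-associated macrophage markers (8 genes) were at 45.7 to 76.9 CPM with anti-LILRB4 and 38.2 to 52.7 CPM in controls. The part of these cells, and of the neutrophils given above, in the Klf2 and Klf4 values was not tested.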

How the data were processed

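Raw read counts for each Ensembl gene were deposited by the authors. Per the submitters' processing notes, the tools used included STAR, featureCounts of the Subread package, Salmon and DESeq2 1.38.3; their roles are unstated, and the genome build is not given in the sources used here. A second table from the authors gives, per the file headers, a log2 fold change with its error, a score, a p-value, an adjusted p-value and a mean normalized signal per gene, in the column names of DESeq2. Its gene start positions matched GENCODE M21 (GRCm38) for 2.01% of genes, so the authors' annotation appears to be another one. Coordinates and exon lengths were still taken from GENCODE M21, by Ensembl identifier. Per-length levels may therefore rest on exons other than those counted.

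After 287 repeated rows with identical counts were dropped, 55493 genes remained. edgeR 4.0.16 (R 4.3.3) was run on 18210 genes kept by filterByExpr (minimum count 10), with TMM scaling, and treatment was tested by quasi-likelihood without covariates. The threshold was a Benjamini-Hochberg adjusted p of 0.05. Log2 CPM values use a prior count of 2, and the standard error of a log2 fold change was derived from F. DESeq2 1.42.0 and limma-voom (limma 3.58.1) were run as alternatives, as were other scalings, other filters, a replicate block and leaving out each library. Promoter windows come from RefSeq. The fit was tested on simulated counts. With 200 of the more abundant genes changed, edgeR recovered 73% of those with a log2 fold change of 1 in size. It recovered 97% of those with 2, and made 13 false calls. With no gene changed it made 0 false calls. All pairs of libraries differed by more than sampling noise. Genes named were all members, all tested Klf and Sp genes, the 2 genes with the smallest p and the most abundant gene of each list, and the 3 genes most like Klf2 and Klf4. Ep300, Fosb, Nr4a1, Ccl5, Cldn5, Rgs5 and the other genes of the MEF2 list were added after their values were seen. The members and lists were chosen with earlier results of these data known. Counting intervals are exact Poisson at 95%. Figures were drawn with matplotlib 3.10.9.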

Additional observations from a re-analysis of the deposited data

How the results depend on the processing

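The count of 0 genes called by edgeR over all genes held under 12 of the 14 alternatives. DESeq2 called 169 genes (84 higher, 85 lower), and edgeR run on unfiltered genes called 300 (183 higher, 117 lower). Leaving out single libraries gave counts of 0 to 0. Of the 8 pathway lists, DESeq2 called 4 genes and edgeR with no filter 6 (Crebbp, Junb, Ier2, Ier3, Ccl3 and Ccl4), and the cause was not tested. Other Klf and Sp genes had 0 calls under every alternative run. Klf4 was called under DESeq2 and with no filter, and under none of the other 12 alternatives. As the 8 genes were chosen on this contrast, nothing is read from these calls. All 112 values of the 8 Klf genes under the alternatives moved by less than 1 SD between replicates. Of the 8 genes, only Klf3 and Klf10 changed sign under an alternative. With the number in the title as a replicate block edgeR called 0 genes, and the log2 fold change of Klf4 was -1.55. Deviations of same-numbered libraries correlated at 0.068, 0.170 and -0.041. Anti-LILRB4 libraries 1 and 2 correlated best with the control of the same number, and anti-LILRB4 library 3 with control library 1. All these values are small and rest on 3 libraries a group, so they cannot settle whether the numbers pair the libraries. Depth limits Klf2 and Klf9, which rested on 13 to 99 reads a library.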
